A study of Drosophila melanogaster with 3 samples.

Results

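The loci described here are places deep inside introns where the protein CG8119 was pulled down in all 3 replicates of a chromatin immunoprecipitation experiment (ChIP-seq). Whole Drosophila melanogaster prepupae aged 1 day carried a transgene for CG8119 fused to enhanced green fluorescent protein (eGFP), and an antibody against the tag pulled the fusion down with sonicated chromatin. The 3 samples were biological replicates 1, 2 and 3 of 1 group, with no group of another genotype, stage or treatment to set beside them. The labels give neither the promoter that drives the transgene nor the sex of the animals, and whole animals mix all tissues of the prepupa. Each replicate came with a list of peaks that passed a threshold on the irreproducible discovery rate (IDR), which estimates how likely a peak is not to be repeated between ranked peak sets. The lists held 7279, 6769 and 4608 peaks in replicates 1, 2 and 3 on the arms of genome build dm6. The summit of a peak is its point of highest signal, and summits within 150 bp of each other were joined into 1 locus whose centre is the median summit. Of 9014 loci seen in any replicate, 3746 had a summit of all 3 and are called shared. A shared locus was deep intronic where its centre lay in a gene body, outside every annotated exon, and over 10000 bp from the nearest transcript start of any gene, and 315 of the 3746 met that rule. The rule used position and presence in the 3 lists, and no signal value or sequence. It still bears on strength, since peaks found in all 3 lists are stronger than peaks at large: the median signal percentile of all deep intronic peaks was 50.4, 45.9 and 43.8 in replicates 1, 2 and 3, below that of the members given further on. Strength is therefore compared only between classes of shared loci. The rule also limits hosts to the 817 of 18277 genes with deep intronic DNA.

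An intron is the part of a transcribed gene that is spliced out of its RNA, and the long introns of fly developmental genes are known to hold many enhancers, which are stretches of DNA that act on a promoter from a distance. The prepupa is the stage between larva and pupa at which the steroid hormone ecdysone drives the breakdown of larval tissues and the growth of imaginal discs, the sacs of cells that form the adult wings, legs and eyes. CG8119 carries only its annotation number as a name in the annotation used. A ChIP-seq peak shows where the tagged protein was enriched with DNA, and it shows neither direct contact with the DNA nor an effect on the surrounding gene.

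The sequences below are examples for 2 features described next, a centre rich in A and T and a short word that faces outward on its sides. Not every example has both. Capitals mark runs of 6 or more A or of 6 or more T, and the word TCAGTG on either strand, which appears as CACTGA where it lies on the minus strand. All are plus-strand sequence of the RefSeq genome of the same build. The first 2 are the strongest deep intronic locus, in lilli, as 100 bp to each side of its centre at chr2L:2924496-2924696, and for contrast a stretch of equal length whose middle lies 500 bp to the right, at chr2L:2924996-2925196. The next is a like window around a strong locus in vn, at chr3L:5834341-5834541. The last 3 are strong members with TCAGTG facing outward on both sides, each as 299 bp around the centre, in heca at chr3R:30293553-30293851, in Pka-C3 at chr3L:15940870-15941168 and in Snoo at chr2L:7916370-7916668. These 3 and the vn window were chosen after their sequence was seen.
lilli, centre: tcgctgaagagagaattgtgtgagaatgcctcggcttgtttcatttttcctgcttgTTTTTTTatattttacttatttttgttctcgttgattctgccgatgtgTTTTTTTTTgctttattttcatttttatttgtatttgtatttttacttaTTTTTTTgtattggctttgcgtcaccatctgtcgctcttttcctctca
lilli, right flank: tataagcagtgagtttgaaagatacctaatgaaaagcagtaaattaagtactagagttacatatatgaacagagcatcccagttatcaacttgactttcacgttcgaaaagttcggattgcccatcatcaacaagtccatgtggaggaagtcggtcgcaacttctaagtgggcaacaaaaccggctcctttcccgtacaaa
vn, centre: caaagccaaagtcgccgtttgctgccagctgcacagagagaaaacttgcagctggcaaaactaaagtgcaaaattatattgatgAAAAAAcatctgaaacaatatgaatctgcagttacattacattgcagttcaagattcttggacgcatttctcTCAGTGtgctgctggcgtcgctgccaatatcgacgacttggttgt
heca, centre: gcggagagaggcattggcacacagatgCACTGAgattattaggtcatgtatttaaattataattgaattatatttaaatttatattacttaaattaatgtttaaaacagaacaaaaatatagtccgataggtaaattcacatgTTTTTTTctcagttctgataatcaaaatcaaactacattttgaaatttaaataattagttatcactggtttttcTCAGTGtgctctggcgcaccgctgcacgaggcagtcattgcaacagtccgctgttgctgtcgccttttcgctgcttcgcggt
Pka-C3, centre: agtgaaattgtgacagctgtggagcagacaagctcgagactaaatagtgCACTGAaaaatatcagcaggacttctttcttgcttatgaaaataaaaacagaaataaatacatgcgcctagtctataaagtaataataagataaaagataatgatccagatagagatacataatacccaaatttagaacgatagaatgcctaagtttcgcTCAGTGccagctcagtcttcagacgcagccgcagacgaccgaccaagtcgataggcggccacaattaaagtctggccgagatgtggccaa
Snoo, centre: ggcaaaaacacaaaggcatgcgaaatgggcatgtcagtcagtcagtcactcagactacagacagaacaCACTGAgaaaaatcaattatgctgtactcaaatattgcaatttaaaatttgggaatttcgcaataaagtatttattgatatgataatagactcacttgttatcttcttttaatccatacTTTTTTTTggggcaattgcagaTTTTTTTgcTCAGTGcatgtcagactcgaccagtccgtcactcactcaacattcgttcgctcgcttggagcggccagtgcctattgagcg

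The lilli window held 3 runs of T and no TCAGTG, with a GC content of 31.8%, against no run and 40.8% in its right flank. The vn window is not rich in A and T over its length, with a GC content of 42.8%, and holds 1 run and 1 copy of the word. The longer windows had a GC content of 35.1% in heca, 40.8% in Pka-C3 and 39.8% in Snoo. In these 3 the minus-strand form lies left of the centre and the plus-strand form right of it, so that both read away from the centre.

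A low GC content at the centre was found at most members. The window of 100 bp to each side of each replicate's own summit had a mean GC content of 33.1%, 33.0% and 33.4% in replicates 1, 2 and 3, or 33.2% ± 0.174 (SD, n = 3), against 41.9% ± 0.0348 in flanks whose middles lie 500 bp to either side. The difference was −8.72 ± 0.179 percentage points and had the same sign in all 3 replicates. An exact two-sided sign-flip permutation test gave p = 0.25, the smallest p that 3 replicates allow. No test over the replicates here can therefore pass 0.05. The 3 values read the same genome sequence at the same 315 loci, where summits spanned a median of 34 bp. Their agreement and SD thus measure only shifts of the summit and add no repeated evidence. Of the 315 members, 278 (88.3%) had a lower GC content than the mean of their own flanks. All deep intronic DNA had a GC content of 40.1%, and 17.9% of its 86343 consecutive windows of that length were at or below the members' median of 32.3%. Other shared loci dipped as far, by −8.92 ± 0.211 points, so the dip was not a mark of deep introns. In 20-bp bins the GC content of deep intronic loci was lowest at 27.6%, next to the centre, and highest at 47.8%, about 210 bp to the right of it, with 47.1% at the same distance to the left.

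**Figure D1:**
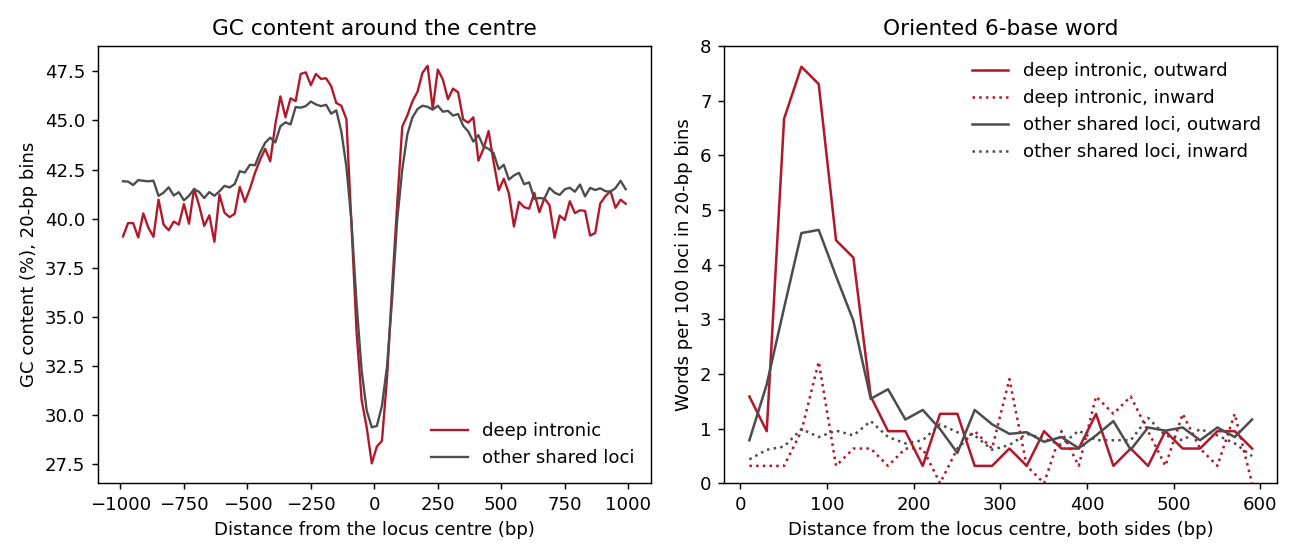
Left, mean GC content in 20-bp bins by distance from the locus centre, for 315 deep intronic loci and 3431 other shared loci; right, occurrences of the 6-base word TCAGTG per 100 loci in 20-bp bins of distance, both sides pooled, with solid lines for words that read away from the centre and dotted lines for words that read toward it. The GC content of deep intronic loci is lowest next to the centre at 27.6%, and the outward word is commonest from 41 to 100 bp, where 68 outward words stand against 11 inward words.

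The oriented word was the second feature. On the stretches 41 to 150 bp to the left and right of the centre, TCAGTG read outward in 81 of 315 members (25.7%), and 16 members (5.08%) carried it outward on both sides. It read inward in 13 members (4.13%), and it read outward in 13 members (4.13%) on the stretches 401 to 510 bp away. Of 78673 windows of deep intronic DNA with the same total length of 220 bp, 4.20% held it on a given strand. Around each replicate's own summits the outward share was 24.8%, 25.1% and 23.2% in replicates 1, 2 and 3, against an inward share of 3.49%, 2.86% and 4.44%. The difference was 20.7 ± 1.81 percentage points (SD, n = 3; exact sign-flip permutation p = 0.25). The word and its direction were noticed in sequences of these same loci, so this test is not independent support. Within 20-bp bins, 24 outward words fell at 61 to 80 bp and 23 at 81 to 100 bp, against 3 and 7 inward words. In the 16 members with the word on both sides, the words lay a median of 171 bp apart, from 129 to 245 bp. The search from 41 to 150 bp on each side bounds this distance, so it is no measure of a preferred spacing.

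The outward word was commoner at deep intronic loci than at other shared loci, 24.3% ± 1.02 against 17.1% ± 0.425 (SD, n = 3 each). The difference was 7.24 ± 0.778 percentage points and was positive in each replicate (exact sign-flip permutation p = 0.25). The word was picked from sequences of deep intronic members, which favours them, so this test cannot decide whether they truly differ. It was not particular to deep introns, since distal intergenic loci, over 3000 bp from genes' starts, had 25.7% ± 0.490. Intergenic loci within 3000 bp of starts had 24.5% ± 0.662, so the share does not simply follow distance from starts. Intronic loci 2000 to 10000 bp from starts had 20.9% ± 0.237, those 500 to 2000 bp away had 13.7% ± 0.152, and promoter loci, within 500 bp of a start, had 12.1% ± 0.741. The 81 members with the outward word had a median signal percentile of 71.1, 68.3 and 54.6 in replicates 1, 2 and 3, against 67.4, 64.3 and 52.3 in the 234 without it. They were stronger in each replicate, by 3.29 ± 0.915 points (p = 0.25 by the same exact test). The word was noticed in sequences of strong members, so this comparison cannot tell whether it goes with strength.

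TCAGTT, one form of the initiator element that marks many fly transcription starts, differs from the word in its last letter. It read outward in 8.15% ± 0.970 of members and in 10.9% ± 0.661 of their far stretches, lower beside the centre in each replicate. Its inward share was 4.55% ± 0.183, so that it too was commoner outward than inward, by 3.60 ± 0.799 percentage points (exact sign-flip permutation p = 0.25). Of the windows of deep intronic DNA, 6.91% held it on a given strand. CACTGT, which shares its first 5 letters with the reverse complement of the word, read outward in 14.8% ± 0.485 of members and inward in 7.41% ± 0.733, and 17 members (5.40%) carried it outward on both sides; at other shared loci its outward share was 17.9% ± 0.0733. TTTTTC read outward in 46.3% ± 0.952 and inward in 12.7% ± 1.14. It read outward in 26.9% ± 0.367 of far stretches, and 20.3% of windows of deep intronic DNA held it on a given strand. Its inward share was thus below both, and its outward share above both. At other shared loci its outward share was 35.8% ± 0.237. All 6-base words were ranked by outward minus inward share in the 108 members on 2L and 3L. All of the first 20 were also commoner outward in the 161 members on 3R and X. Most of the 20 were overlapping words rich in T, and 4 were TCAGTG or overlapped it, so they are not separate features. The share of all 6-base words commoner outward on 3R and X was not computed. TCAGTG stood at 23.1% outward and 2.78% inward in the first set, and at 26.1% and 5.59% in the second. The oriented words were noticed in these same loci, so the second set is not independent support.

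Words of known factors were sought next, and the largest differences were those of A/T-only words. Each of 27 words was sought on both strands within 100 bp of the summit and in the flanks. AAAAAA had the largest difference, present in 60.5% ± 0.661 of summit windows and 40.7% ± 0.557 of flanks, against 37.0% of windows of deep intronic DNA. TATATA was present in 23.9% ± 0.485 of summit windows and 8.99% ± 0.367 of flanks. Neither excess was particular to deep introns. Other shared loci had 20.5 points for AAAAAA and 10.7 for TATATA, against 19.8 and 14.9 points at members. ACACAC, a CA repeat, was scarcer at the summit, with 10.4% ± 1.11 against 15.7% ± 0.159. GAGAG, the core of sites of the GAGA factor, was present in 21.0% ± 0.550 of summit windows and 22.1% ± 0.420 of flanks. AGGTCA, the half-site of many nuclear receptors, was present in 3.60% ± 0.485 and 5.08% ± 0.420. GATAAG, bound by GATA factors, was rarer at deep intronic loci than at other shared loci by −3.05 ± 0.487 percentage points, with 6.35% ± 0.317 of deep intronic summit windows. With loci of replicates 1 and 2 alone this difference was −0.977 points. The flanks differed alike, with 5.82% ± 0.0916 at deep intronic loci and 9.09% at other shared loci. GCCATT, the core of the site of the Polycomb group protein Pleiohomeotic, was commoner than at other shared loci by 3.33 ± 0.782 points, at 11.96% ± 0.799, yet 14.8% of windows of deep intronic DNA held it, and it was scarcer at the summit than in flanks by −3.92 ± 0.815 points. Its difference from other shared loci was 0.585 points with windows of 50 bp to each side and 1.95 points with loci of replicates 1 and 2 alone. Each p was 0.25 or higher by the exact sign-flip test, and the smallest p adjusted over the 27 words was 0.293 for the flanks.

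Deep intronic DNA spans 18.0 Mb, 13.1% of the length of the arms, and held 8.41% of the shared loci. Its density of summits was 32.02, 31.2 and 21.2 per Mb in replicates 1, 2 and 3, against 66.4, 63.3 and 44.8 per Mb in intronic DNA 2000 to 10000 bp from starts. Replicate 3 was lowest in both, as its list was the shortest. The ratio was 0.482, 0.493 and 0.474 in the 3 replicates (exact sign-flip permutation p = 0.25 on the log2 ratio of −1.05 ± 0.03). Against all DNA of the arms the ratio was 0.603, 0.631 and 0.632 (p = 0.25 by the same exact test). Distal intergenic DNA was sparser than deep introns, with 28.1 ± 6.0 summits per Mb in deep introns and 18.5 ± 3.3 in intergenic DNA over 3000 bp from starts (SD, n = 3 each).

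**Figure D2:**
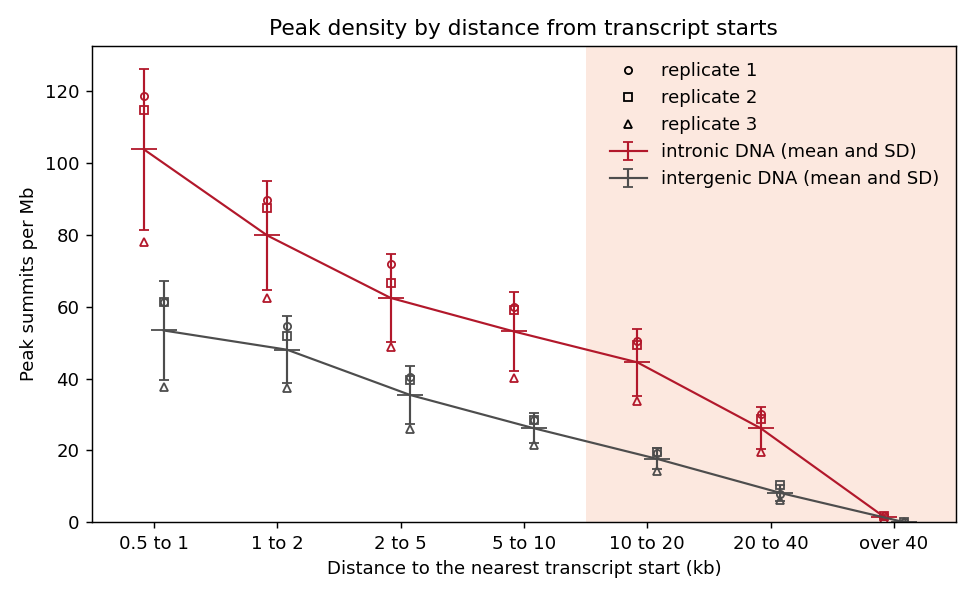
Summits per Mb of intronic DNA and of intergenic DNA in bins of distance to the nearest transcript start; small symbols are the 3 replicates, horizontal marks the mean, bars the SD, and shading the distances over 10 kb. Intronic density lies above intergenic density in every bin and falls with distance, to 44.5 per Mb at 10000 to 20000 bp and 26.2 per Mb at 20000 to 40000 bp.

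Within deep introns the density fell with distance, to 44.5 ± 9.30 per Mb at 10000 to 20000 bp, 26.2 ± 5.81 per Mb at 20000 to 40000 bp and 1.53 ± 0.460 per Mb beyond 40000 bp. The farthest bin is mostly DNA rich in repeats. Only 19.96% of it lies in 100-kb windows with at least 70% of bases outside repeat masking, against 89.97% of the bin at 10000 to 20000 bp. In those windows alone the densities were 47.8 ± 9.99, 33.4 ± 7.65 and 6.33 ± 1.15 per Mb, so the order stayed, and the ratio of deep introns to introns 2000 to 10000 bp from starts was 0.677. The 10 genes with the most deep intronic DNA, among them Myo81F with 1842 kb, held no summit of any replicate list in it, and between 51.7% and 66.2% of their length was unmasked. Only 3 members lay over 40000 bp from a start, all on X, 2 of them in mamo, which encodes a zinc finger factor of the germ line, and 1 in CG43759. The median member lay 14711 bp from the nearest start, within an intron of median length 25769 bp and 8798 bp from the nearest exon of its host. Members per Mb of deep intronic DNA numbered 28.1 on 2L, 23.1 on X, 15.8 on 3L, 15.7 on 3R and 14.9 on 2R, with none on chromosomes 4 and Y. Shared loci of all classes per Mb of all DNA numbered 27.6, 32.8, 30.8, 25.8 and 25.1 on these arms. Chromosome 4 had only 1 such locus and Y had 0. The 10 genes above without a summit in their deep intronic DNA lie on 2R, 3L, 3R and Y, and their part in this was not tested.

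Deep intronic loci were somewhat weaker than other shared loci. Peak signal was deposited by the authors with no scale stated, so it is given here also as a percentile within the list of its replicate. The median percentile of the 315 members was 68.5, 64.7 and 52.9 in replicates 1, 2 and 3, against 74.0, 71.9 and 59.7 for the other 3431 shared loci. The difference of −6.48 ± 0.927 points kept its sign in every replicate (exact sign-flip permutation p = 0.25). Against the 880 intronic loci 2000 to 10000 bp from starts, with 70.5, 68.5 and 56.2, the difference was −3.05 ± 0.924 points (p = 0.25 by the same exact test). Loci shared by replicates 1 and 3 alone gave −1.48 points for this difference, and loci shared by replicates 1 and 2 alone gave −4.28 points for that from other shared loci. Distal intergenic loci stood level, with 62.0 ± 8.16 for deep introns and 61.9 ± 6.43 for those loci. Among the strongest loci the gap was wider, since 20 members (6.35%) but 553 other shared loci (16.1%) had a mean percentile of 90 or more. Neither distance to the nearest start nor GC content tracked strength among the members, with a Spearman correlation across the 315 loci of 0.07 and 0.03. Median peak widths were 302, 376 and 360 bp in deep introns, against 330, 376 and 360 bp elsewhere, and each list had 1 commonest width, held by 47.3%, 62.5% and 82.2% of the members' peaks.

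**Figure D3:**
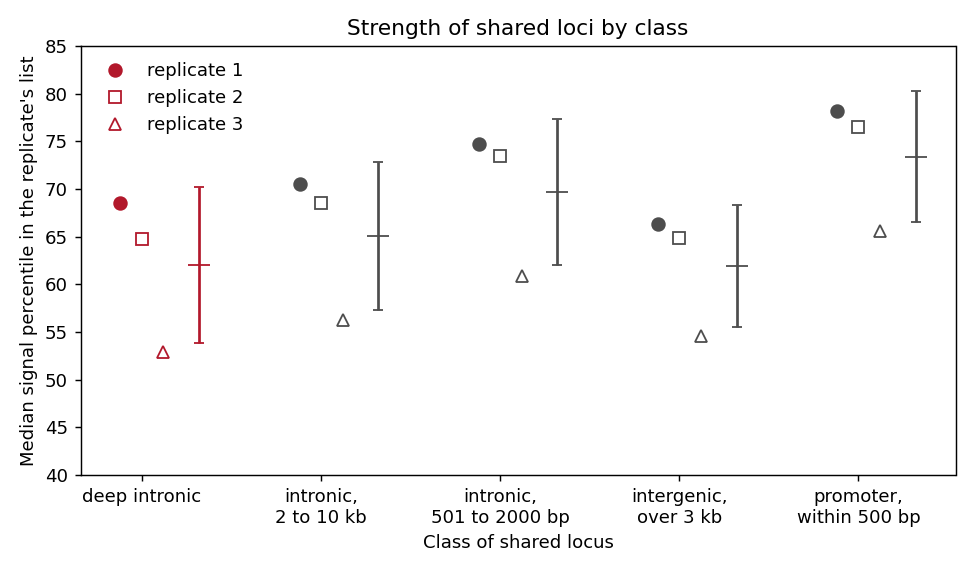
Median signal percentile of the shared loci of 5 classes in each replicate (symbols), with the mean and SD over the replicates beside them; a percentile of 100 is the strongest peak of that replicate's list, and the axis starts at 40. Deep intronic loci sit at 68.5, 64.7 and 52.9, below the classes nearer to starts in each replicate and level with distal intergenic loci.

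The 15 strongest members lay in 12 host genes. The strongest, in the fourth intron of lilli, which encodes a scaffold of a transcription elongation complex, had a signal of 638, 466 and 384 in replicates 1, 2 and 3, a mean percentile of 97.4 ± 1.32. It lay 21967 bp from the nearest start and only 318 bp from an exon of lilli. A pair of loci in the first intron of heca (headcase), a gene expressed in imaginal cells that outlive the larva, had 510, 522 and 392 at one and 416, 425 and 328 at the other. In Snoo, which encodes a Ski and Sno family partner of Smad proteins in transforming growth factor signalling, a locus 34885 bp from any start had 602, 445 and 394. In sbb (scribbler), which encodes a zinc finger corepressor, the strongest locus had 486, 339 and 340. In simj, which encodes a subunit of the nucleosome remodelling and deacetylase complex, it had 368, 460 and 307, so here replicate 2 was highest. In vn (vein), a secreted ligand of the epidermal growth factor receptor (EGFR), it had 429, 303 and 310. The remaining 8 of the 15 strongest were in CG6959, tai (2 loci), Pka-C3, sbb, CG42238, luna and N, the Notch receptor, with signals from 238 to 422. The lowest of the 315, in sn (singed), had 71.0, 52.8 and 61.9.

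**Figure D4:**
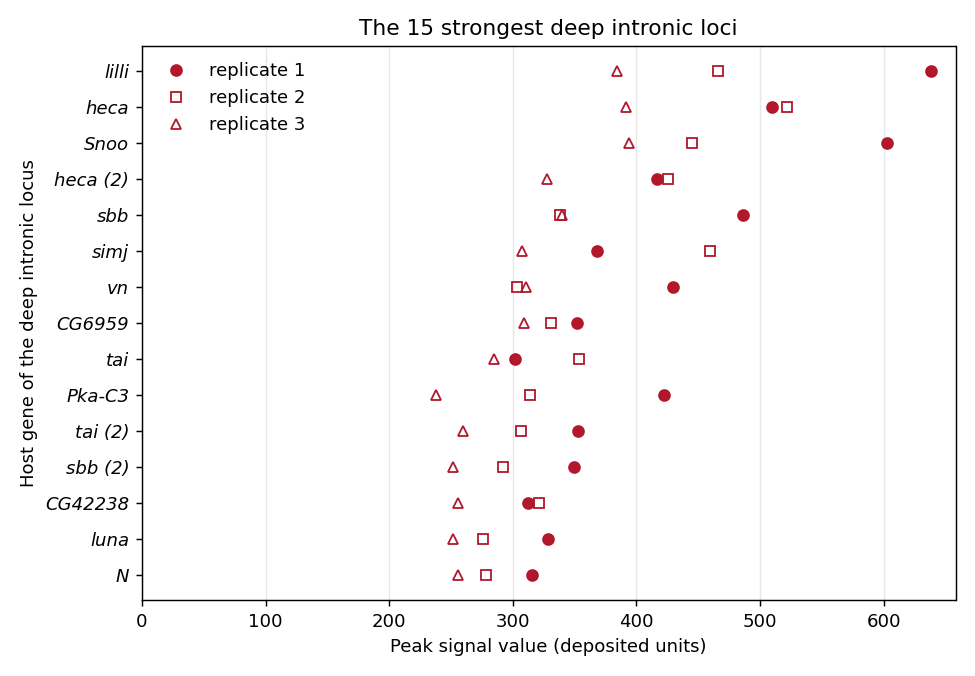
Signal of the 15 strongest deep intronic loci in the 3 replicates (symbols), on a linear axis in the deposited units, labelled by host gene; a number in brackets marks a later locus of the same gene. Replicate 3 is lowest at all loci but the stronger one in sbb and the one in vn, and the locus in lilli reaches 638 in replicate 1.

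The ranks of members held between replicates, with Spearman correlations across the 315 loci of 0.793, 0.812 and 0.802 for the 3 pairs of replicates. The same values across other shared loci were 0.886, 0.878 and 0.884. Of the 724 deep intronic loci found in any replicate, 315 (43.5%) were in all 3, 156 in exactly 2 and 253 in exactly 1, against 41.6% of all 9014 loci in all 3. Every member had a summit within 150 bp in the longest peak list deposited for the whole series, against 99.7% of all shared loci. The lists of the series were derived from several of the same replicates and add no independent sample. The 10000 bp limit cut through a continuum. The nearest members inside it were in Efa6 at 10007 bp, CG43658 at 10045 bp and fru at 10046 bp from a start, with mean percentiles of 79.4, 35.8 and 49.1. The nearest loci outside it were in NetA at 9933 bp, Hs6st at 9920 bp and if at 9856 bp, with 70.7, 58.2 and 32.3.

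Members were unevenly spread over genes. Of 817 genes with deep intronic DNA, 153 (18.7%) held at least 1 member, and 75 of these held exactly 1. The host was protein-coding for 309 members. Snoo and kirre held 10 members each, heca and sbb 8 each, and Tet, ed and sano 6 each. The 10 in Snoo were spread over its long second intron, with mean percentiles from 32.1 to 97.3. Those in kirre, which encodes an immunoglobulin adhesion protein of muscle founder cells, all lay in the ninth intron of a gene of 394149 bp, and the strongest had a signal of 311, 239 and 286. In sbb, 8 members lay in 25.5 kb of deep intronic DNA, or 314 per Mb, against 17.5 per Mb over all deep intronic DNA. Tet encodes a dioxygenase that acts on modified bases, and ed (echinoid) an adhesion protein that restrains EGFR signalling. Of the 315 members, 168 (53.3%) lay within 5000 bp of another member. The nearest shared locus of any class was a median of 3892 bp away, close to the 3884 bp for intronic loci 2000 to 10000 bp from starts.

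The nearest start belonged to the host gene for 164 members (52.1%), to a gene nested in the host for 95 and to a gene outside it for 56. Of the members in protein-coding hosts, 75 (24.3%) lay in the first intron, which holds 12.8% of the deep intronic DNA of such genes. That DNA includes the repeat-rich giant genes without summits, and DNA of overlapping genes is counted for each gene. Peaks at a gene's own start went with peaks deep inside it. In genes with a summit within 500 bp of one of their starts, deep intronic DNA held 84.8, 81.2 and 59.1 summits per Mb in replicates 1, 2 and 3, against 16.0, 19.5 and 15.1 per Mb in the other genes. The lowest value of the first set, 59.1, was above the highest of the second, 19.5. Among the 153 hosts, 44 (28.8%) had a shared locus at a start, against 12.8% of the 664 genes whose deep intronic DNA held none. The share of masked repeats differs between genes, and its part in this was not tested.

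Host genes were then sorted by 18 lists of genes, beside a share of 18.7% over all genes with deep intronic DNA. That share depends on how much such DNA a gene has, at 7.51% of genes with under 10 kb, 27.0% with 10 to 30 kb, 41.4% with 30 to 60 kb and 27.8% above, so counts of hosts in a list are not on a like footing with it. Summits per Mb take the amount of DNA into account. The lists were chosen with earlier results of these data known. A density above that over all genes in every replicate is therefore a description and no independent support for a list. Repeat-rich giant genes without summits lower the density over all genes, which was 45.9, 45.2 and 30.6 per Mb in windows with at least 70% unmasked bases. Of the 14 genes for the ecdysone response and nuclear receptors that have such DNA, 8 held members, and these held 20 loci with a median percentile of 61.8, against 60.7 for all members. Their deep intronic DNA held 169, 134 and 93.6 summits per Mb in replicates 1, 2 and 3, against 32.02, 31.2 and 21.2 per Mb over all genes. The strongest locus in tai (taiman), a coactivator of the ecdysone receptor, had a signal of 302, 354 and 284, and tai and the nuclear receptor gene Hr4 held 5 members each. The strongest in Hr4 had 267, 253 and 191. In ftz-f1, a nuclear receptor that makes tissues competent to respond to ecdysone in the prepupa, 1 of 3 members had 192, 216 and 202. The other hosts of the list were Eip75B, svp, Eip93F, knrl and Hr39, while EcR, br, E23, Eip63E, Eip74EF and Hr38 had deep intronic DNA and no member.

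The Wnt, Hedgehog and BMP, Notch, and EGFR lists also had more summits per Mb than all genes in every replicate, also in windows with at least 70% unmasked bases. Of the 11 genes of the Wnt, Hedgehog and BMP pathways, 8 held 19 members, 10 of them in Snoo, with 137, 132 and 95.7 summits per Mb. Its other hosts were arr, dally, fz, dlp, fz2, nkd and sog, and the locus in arr (arrow), a Wnt coreceptor, had a signal of 345, 222 and 287. The Wnt receptor genes fz and fz2 and the glypican genes dally and dlp, whose products bind Wnt and BMP ligands, were thus all hosts. Wnt6, dpp and pan of the same list had deep intronic DNA and no member. In the Notch pathway list 5 of 9 genes held 8 members, with 171, 184 and 144 summits per Mb. The hosts were N, kuz, Bx, Ser and Delta, the last 2 of which encode the Notch ligands. Bx, with 2 of these members, encodes a LIM-only protein that is not a core part of the pathway. The genes fng, mam, nej and numb of the list had deep intronic DNA and no member. The locus in N had 316, 278 and 256, and 1 of 2 in kuz (kuzbanian), the protease that cleaves Notch, had 263, 307 and 170. In the EGFR and Ras pathway 4 of 7 genes held 9 members, 6 of them in ed, with 97.6, 90.1 and 75.1 summits per Mb. Src64B, aos and rl of that list had no member in their deep intronic DNA. Among imaginal disc patterning factors 7 of 21 genes held 17 members, 8 of them in sbb, with 69.4, 93.5 and 66.8 per Mb. The deep introns of bab1, which patterns legs and abdomen, held 3 members, and the strongest had 307, 231 and 214.

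Genes for ion channels and neurotransmission had the lowest density among lists with at least 5 genes. Only 1 of these 26 genes held a member, although their deep intronic DNA spans 0.743 Mb; with loci of replicates 1 and 2 alone, 3 did. That locus, in the acetylcholine receptor gene nAChRalpha6, had a signal of 58.7, 70.3 and 58.5 and ranked 314 of 315. The density in this list was 6.73, 6.73 and 1.35 summits per Mb, below the value over all genes in each replicate. The list also holds Rbp6, which encodes an RNA-binding protein. RNA-binding and splicing regulators had 11.3, 11.3 and 7.08 per Mb, with members in 2 of 14 genes, msi (musashi) and pum (pumilio). None of 12 muscle and cytoskeleton genes held a member, and their density was 24.2, 8.07 and 8.07 per Mb, from 3, 1 and 1 summits. Their deep intronic DNA spans 0.124 Mb, of which 69.7 kb is in mbl. The genes mbl and how also stand in the list of RNA-binding and splicing regulators, as does Rbp6. These low densities are thus partly of the same DNA. Axon guidance genes had 3 hosts of 22, Ptp10D with 4 members and Ten-a and caps with 1 each, and 22.2, 31.4 and 12.9 summits per Mb, below the value over all genes in replicates 1 and 3. In windows with at least 70% unmasked bases they had 24.4, 34.6 and 14.2 per Mb, below all genes there in each replicate. Immunoglobulin and cadherin adhesion genes had 5 hosts of 22 and 23 members, 10 of them in kirre. They had 51.1, 41.8 and 37.1 per Mb, above the value over all genes in each replicate. In windows with at least 70% unmasked bases they had 54.6, 47.6 and 42.3 per Mb, above all genes there too. Homeotic genes had 2 hosts of 5, hth with 2 members and Antp with 1, at 43.3, 43.3 and 37.9 per Mb, while Ubx, abd-A and pb had none. All of that DNA is in such windows, where all genes had more per Mb in replicates 1 and 2. In whole animals, binding in few cells and weak binding in many cells cannot be told apart.

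**Figure D5:**
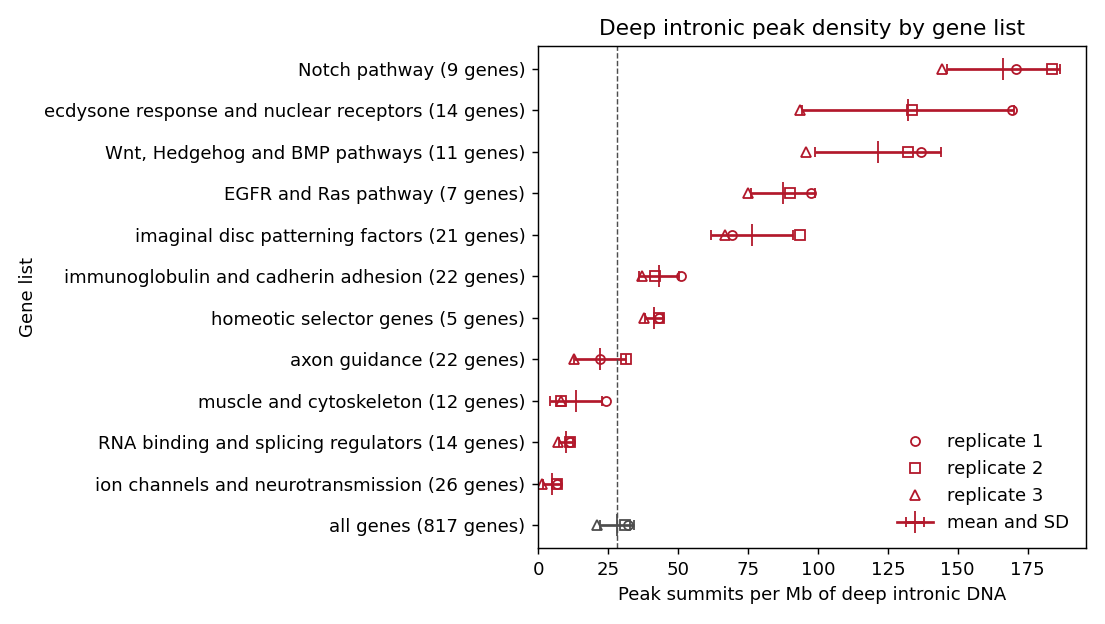
Summits per Mb of deep intronic DNA in the 3 replicates (symbols) with mean and SD, for each gene list with at least 5 genes that have deep intronic DNA and, at the bottom and as the dashed line, for all 817 such genes. The lists for Notch, ecdysone and Wnt, Hedgehog and BMP signalling lie above the value over all genes in every replicate. Those for ion channels and RNA binding lie below it. The lists were chosen with earlier results of these data known.

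The remaining lists were small. The Polycomb and Trithorax groups had 2 hosts of 4 genes, psq (pipsqueak) and jing, with 2 members each and 75.9, 60.7 and 75.9 summits per Mb, but 34.4, 34.4 and 51.5 per Mb in windows with at least 70% unmasked bases. Hippo, JAK-STAT and growth control had 1 host of 4, the protocadherin gene ds (dachsous), with 32.5, 114 and 16.2 summits per Mb, below the value over all genes in replicate 3. All of that DNA is in such windows, where all genes had more per Mb in replicates 1 and 3. The genes with deep intronic DNA for insulator proteins, the circadian clock, insulin and TOR signalling, glia, and autophagy and cell death numbered 2, 1, 3, 1 and 1, and none held a member. The 3 insulin and TOR genes had 64.9, 64.9 and 0 summits per Mb. Some genes stand in 2 lists, among them ed and hth, and 46 of the 153 hosts were in any list.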

How the data were processed

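Peaks came from 3 biological replicates of 1 group. Per the deposited README texts, each replicate's list was derived from its own alignment with a control, on dm6. Which aligner and which peak caller made them is not given in the sources used here. Peak signal, as deposited by the authors, has no stated scale. The deposited scaled IDR score of a thresholded peak reflects an IDR of 0.01 or less, and the authors' ranked lists hold the −log10 of the IDR, used only for an alternative. Library depth is unknown, since no read totals were used here. Summit offsets from peak starts are the authors' own, per the deposited files.

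Classes used gene models of Ensembl release 115 without transposable elements. A summit was assigned to the first class that held it: promoter (within 500 bp of a start), exon, intron by distance, intergenic DNA. Introns were numbered as the gaps between exons merged over all transcripts of a gene. Density is summits of a replicate's list per Mb of DNA of a class. Repeat masking is the lower case of the RefSeq genome. Values over replicates are mean ± SD with an exact two-sided sign-flip permutation test. The replicates are labelled biological, and p-values measure the spread between them only. For GC content and words, the replicates read the same genome sequence at the same loci, so the spread is only that of summit positions. Loci are not replicates, and no test ran over them. Named genes were the hosts of the 15 strongest members, the genes with most members, the leading hosts of each list, and hosts of the 3 loci on each side of the distance limit. Gene lists were matched by symbol, 12 symbols through synonyms and 7 not at all. The symbol of Delta, which 2 genes share as a synonym, was corrected after results were seen. Members, lists and words were chosen with earlier results of these data known, and the oriented words after the loci's sequences were seen. The functions were tested on simulated peaks. Python 3.11.15, numpy 2.4.6, scipy 1.17.1 and matplotlib 3.10.9 were used. Alternatives were other join distances, start distances, windows, flanks, annotations and lists, and leaving out each replicate.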

Additional observations from a re-analysis of the deposited data

Results flagged for a closer look

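The longest list deposited for the whole series placed 916 peaks in deep intronic DNA, and 257 of them (28.1%) had no summit of any replicate list within 150 bp, a signal in data that the comparisons above do not use. Over all classes the share was 25.7%. That list was derived from alignments of several replicates, and no control sample was at hand to set a level for it.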

How the results depend on the processing

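The 315 loci and 153 host genes depended most on the distance limit, with 679 loci in 341 genes over 5000 bp from starts and 76 in 42 genes over 20000 bp. Keeping peaks at or above the median signal of each list gave 156 loci in 97 genes. Leaving out 1 replicate gave 333 to 431 loci in 156 to 184 genes. Both density ratios, both percentile differences and the GC difference kept their direction under every alternative run, but with starts over 20000 bp away the percentile difference from introns 2000 to 10000 bp from starts was −1.39 ± 1.89 points and not of 1 sign in all replicates (exact p = 0.5). Restricting to 100-kb windows with at least 70% unmasked bases, chosen after seeing the data, moved the ratio to introns 2000 to 10000 bp from starts to 0.677, from 0.483. With starts over 20000 bp away it was 0.221, and the ratio to all DNA was 0.285, from 0.622. The mean width difference of −9.33 bp turned to 2.17 bp with protein-coding genes only, and to between 0 and 18.0 bp without 1 replicate. For GATAAG, the difference of summit windows from flanks was −1.01 points with windows of 50 bp to each side and −2.49 with flanks at 1000 bp, against 0.529. For GAGAG it was 3.76 with windows of 150 bp to each side, 0.476 with flanks at 1000 bp and −0.901 to 0.464 without 1 replicate, against −1.11. Without 1 replicate, the outward minus inward difference for TCAGTG was 19.0 to 19.2 points. The number of ecdysone list genes with a member ranged from 2 over 20000 bp from starts to 12 over 5000 bp, and of ion channel list genes from 0 to 3, the highest also without replicate 3. The causes were not tested. All differences above were taken within replicates. With 1 group, no samples of different groups could be paired. Depth is unknown, so a site with no peak cannot be called unbound.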
